A study of Mus musculus with 10 samples.

Results

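The genes described here are 38 genes of presynaptic vesicle release, whose products hold vesicles at the active zone, prime them, fuse them or regulate these steps. They were selected by symbol from an inclusion table that lists 26264 gene symbols, and all 38 were found there. They carried 2054 splicing events in N2A cells. Their microexons also filled 36 lines, from 16 of the genes, of a comparison in neurons treated with cycloheximide. An authors' list of neural microexons held 2 entries, in Erc1 and Unc13a, and both exons are also among these 36.

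Polyadenylated RNA was sequenced in 2 experiments. In N2A, a mouse neuroblastoma line, the 3 siQk samples received 40 nM of an siRNA pool that targets Qk, and the 3 siNT samples the same dose of a pool with no target. Cells were seeded at 100000 per well and harvested after 72 h. Glutamatergic neurons differentiated in vitro from mouse embryonic stem cells received 100 uM cycloheximide for 12 h at day 7 (CHX, n = 2) or were left untreated at day 7 (n = 2). N2A is 1 transformed line, so its 3 samples per group are repeats of a single genetic background, and the neurons are a culture model. The first comparison asks which splicing events depend on Qk, and the second which microexons differ when translation is blocked.

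Vesicle release runs through a SNARE complex, in which syntaxin and a SNAP25-family protein on the plasma membrane zipper together with VAMP on the vesicle. Munc13 proteins (Unc13 genes) open syntaxin for this step, RIM, ELKS, Bassoon and Piccolo scaffolds place the machinery at the active zone, and synaptotagmins sense calcium. Quaking, the product of Qk, is an RNA-binding protein that raises or lowers exon inclusion depending on where it binds, and cycloheximide stops translation elongation and with it nonsense-mediated decay of transcripts.

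Percent spliced in (PSI) is the share of a gene's transcripts that include an exon, and differences of PSI are given in percentage points. N2A samples held from 26595944 (siQk 2) to 80481173 (siQk 3) exon-event reads. Junction coverage, the reads over all exon events of a gene scaled to the library's total of such reads (CPM), stands in for expression. Qk itself had 8.18, 12.3 and 13.0 CPM in siQk 1 to 3, against 90.8, 82.9 and 82.5 CPM in siNT 1 to 3, with a log2 fold change of -2.91 (limma adjusted p = 0.000483). Of 11 neuronal or neuroblast markers, 7 averaged over 1 CPM, with a summed coverage of 1610 to 1890 CPM in siQk and 1550 to 1690 CPM in siNT. Dcx, Rbfox3, Nefl and Nefm were near 0. No marker with enough reads for the coverage test was called, and the others were not tested. The fibroblast marker Pdgfra came closest, at 1.54 CPM in siQk and 0.73 CPM in siNT (log2 fold change 0.71, limma adjusted p = 0.0952). Markers of glia, blood cells, fibroblasts and stem cells summed to 4.96 CPM or less per list in every sample. The neuron table holds no expression values, so its cell label could not be checked.

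After Qk knockdown, most measured splicing of the release genes differed little between siQk and siNT, and the events that passed the test lay in Snap23 and Cask. Of 725 cassette exons of the 38 genes, 382 had at least 10 reads in all 6 samples. Of these, 276 had a mean PSI over 98 and 40 one under 2, which left 66 tested exons in 17 genes. Only the Snap23 exon described next was called changed, at a limma adjusted p under 0.05 and a difference of at least 10 points. That is 1.52% of the tested exons of these genes, beside 1.18% of all 12930 exons tested and 0.750% called higher in siQk. The adjusted p alone was under 0.05 in 4 of the 66, beside 1.40% of all exons, and the unadjusted p in 12, beside 9.04% of all. Differences of at least 10 points, with no regard to p, were found in 7 of the 66 exons (10.6%), beside 5.51% of all exons. The siQk and siNT samples did not overlap in 15 of the 66 (22.7%), 9 higher and 6 lower in siQk, beside 14.6% of all exons. The median size of the difference was 2.88 points, beside 1.82 points over all exons, and 36 of the 66 differences were above 0. These shares describe the list and were not tested as a set.

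**Figure D1:**
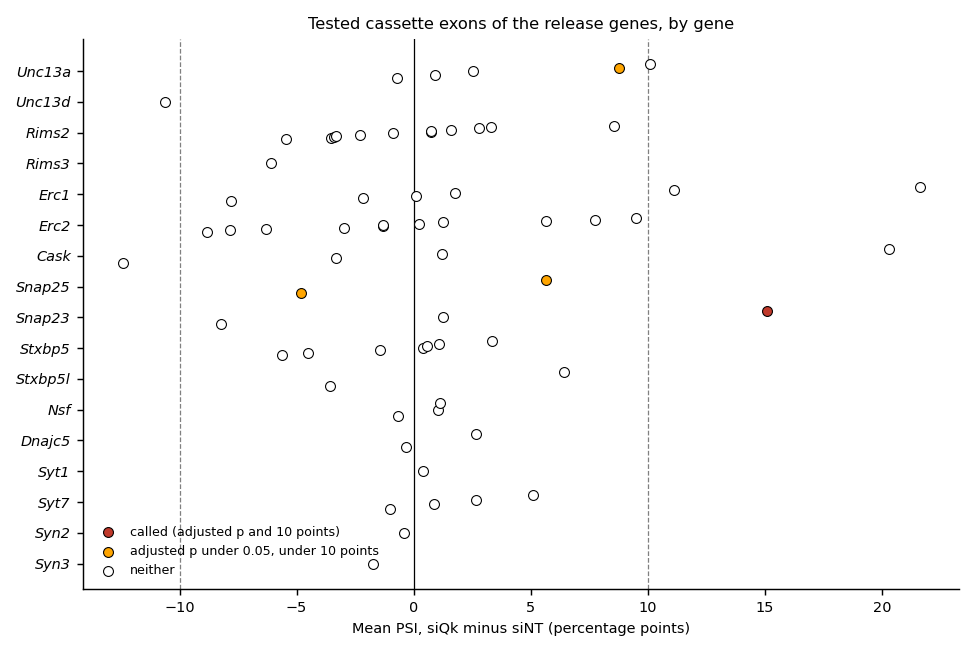
Difference of mean PSI, siQk minus siNT (x axis, percentage points), for the 66 tested cassette exons of the release genes, 1 row per gene and 1 circle per exon. Dashed lines mark 10 points. The 93 nt exon of Snap23 is the called one, at 15.1 points, while larger differences in Erc1 (21.6 points) and Cask (20.3 points) did not pass the test.

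Among the SNAREs, the called exon was in Snap23, the broadly expressed relative of the neuronal Snap25, both of which bind syntaxin on the plasma membrane. A 93 nt exon (chr2:120590822-120590914, plus strand, GRCm38/mm10) lay in noncoding GENCODE M21 transcripts only. It follows a coding exon of 118 nt, and read in the frame of that exon it holds 1 in-frame stop codon, which begins at base 29 of the exon. The GENCODE sequence is shown because it is the called exon. Capitals mark the exon and small letters the 15 nt spliced to it on each side.
Snap23 93 nt exon: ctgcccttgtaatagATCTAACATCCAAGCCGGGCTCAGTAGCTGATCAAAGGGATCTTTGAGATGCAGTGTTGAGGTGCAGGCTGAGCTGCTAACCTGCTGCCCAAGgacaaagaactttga

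PSI of this exon was 16.89, 21.13 and 11.67 in siQk 1 to 3, against 0.92, 1.67 and 1.88 in siNT 1 to 3. All 3 siQk samples lay above all 3 siNT samples. The means were 16.6 ± 4.74 in siQk and 1.49 ± 0.505 in siNT (SD, n = 3 each), a difference of 15.1 points. The siNT mean lay under the minimum mean PSI of 2, so the exon entered the test only through its siQk values. With no filter on mean PSI, its limma adjusted p was 0.00233. The log2 read ratio (inclusion over exclusion reads) rose by 3.45 (SE 0.57, limma adjusted p = 0.0134). The exon rests on few reads: after the authors' correction, inclusion reads numbered 9.46, 13.31 and 20.77 in siQk and 1.45, 1.47 and 4.08 in siNT. Without siQk 2, the shallowest library, the difference was 12.8 points and the adjusted p = 0.0751. On the PSI scale in place of the read ratio, limma gave an adjusted p of 0.0652. The neighbouring 118 nt coding exon (chr2:120586159-120586276) had a PSI of 86.41, 90.68 and 92.58 in siQk and 98.15, 98.62 and 97.57 in siNT. Here the siQk samples lay below the siNT samples (-8.22 points), and the difference did not pass the test (limma adjusted p = 0.0763).

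Snap25, the neuronal SNARE of the same family, carries a pair of mutually exclusive exons of 118 nt. Exon A (chr2:136769743-136769860, plus strand) encodes the form that prevails in immature neurons, SNAP25a, and exon B (chr2:136770057-136770174) the form of mature brain, SNAP25b. They share 87 of 118 positions (73.7%). The 118 nt exon of Snap23 shares 75.4% of positions with exon A and 72.9% with exon B. The coding exons are printed in full, from GENCODE M21, so that the 2 alternatives can be compared.
Snap25 exon A: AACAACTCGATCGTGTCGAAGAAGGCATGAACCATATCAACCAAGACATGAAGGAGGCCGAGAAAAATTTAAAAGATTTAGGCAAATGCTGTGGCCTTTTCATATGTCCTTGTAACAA
Snap25 exon B: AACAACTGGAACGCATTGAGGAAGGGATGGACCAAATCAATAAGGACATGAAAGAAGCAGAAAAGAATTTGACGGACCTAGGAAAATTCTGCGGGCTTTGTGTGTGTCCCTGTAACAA

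Exon B was included at 11.22, 11.71 and 12.04% in siQk 1 to 3, against 5.73, 6.07 and 6.28% in siNT 1 to 3. Exon A was included at 89.91, 89.65 and 89.13% in siQk, against 95.19, 94.33 and 93.64% in siNT. Neither exon overlapped between groups, and samples of a group differed by less than 2 points. Exon B was 5.63 points higher in siQk (log2 read ratio 1.04, SE 0.19, limma adjusted p = 0.0242). Exon A differed by -4.82 points (-0.98, SE 0.19, limma adjusted p = 0.0297). On the PSI scale neither passed, with adjusted p of 0.118 for exon B and 0.213 for exon A. Both passed the adjusted p but not the 10-point minimum, so they were not called, and exon A remained the main form in all 6 samples. Since the exons exclude each other, they are not independent measurements. Leaving out any 1 of 5 samples (all but siQk 1) took both adjusted p-values over 0.05, to 0.155 at most, while the differences stayed between 5.44 and 5.85 points for exon B and between -5.20 and -4.42 points for exon A.

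Unc13a encodes Munc13-1, the main vesicle priming factor of glutamatergic synapses. Of its 5 tested exons, a 6 nt microexon (chr8:71639217-71639222, minus strand) and a 30 nt exon (chr8:71636538-71636567), both coding, were higher in all siQk samples. They are printed in the direction of transcription from GENCODE M21, exons in capitals, because both stood apart between the groups and the first passed the adjusted p.
Unc13a 6 nt exon: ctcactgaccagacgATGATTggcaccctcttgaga
Unc13a 30 nt exon: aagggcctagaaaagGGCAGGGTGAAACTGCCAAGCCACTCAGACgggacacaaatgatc

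The 6 nt microexon had a PSI of 93.67, 93.79 and 94.14 in siQk 1 to 3 and of 82.20, 86.14 and 87.02 in siNT 1 to 3, with no overlap. It was 8.75 points higher in siQk (log2 read ratio 1.39, SE 0.22, limma adjusted p = 0.0097), under the 10 points needed for a call. Its adjusted p stayed under 0.05 without siQk 1, siQk 2 or siNT 3, and not without siQk 3, siNT 1 or siNT 2, nor on the PSI scale (0.0944). The authors' deposited table of neural microexons gives 93.8% in siQk and 85.8% in siNT, classes the exon as not changed by Qk and lists no ACTAAY motif, the sequence Quaking binds, beside it. The heading of that class names a difference of 10 points, which the authors' 7.97 points do not reach. The rest of their rule is not given. The 30 nt exon had a PSI of 93.70, 90.69 and 93.39 in siQk and of 77.94, 85.01 and 84.67 in siNT. It was 10.1 points higher in siQk and did not pass the test (limma adjusted p = 0.0627). Its p passed (0.0451) where exons of extreme mean PSI were kept in the fit. Whether the 2 exons share reads was not tested. An upstream 30 nt exon was included at 25.4 ± 3.25% in siQk and 22.8 ± 1.80% in siNT (SD, n = 3 each, adjusted p = 0.866). Unc13d, a relative used in granule release of blood cells, had 1 tested exon of 108 nt, at 70.5% in siQk and 81.1% in siNT on as few as 16 reads (adjusted p = 0.754). Its difference was -10.6 points with all samples, -1.17 without siNT 2, -4.30 without siQk 1 and -17.3 without siNT 3.

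Erc1 and Erc2 encode the ELKS and CAST scaffolds, which bind RIM at the active zone. A 67 nt exon of Erc1 (chr6:119618846-119618912) showed the largest difference of all tested exons of the release genes with all 6 samples, and the 9 nt event of Cask a larger one without siQk 2 or siNT 2. The coding region ends within this exon in all 5 GENCODE M21 transcripts that contain it. Its PSI was 93.75, 82.40 and 91.04 in siQk 1 to 3, against 78.10, 65.35 and 58.86 in siNT 1 to 3. The groups did not overlap, but spread widely, with means of 89.1 ± 5.93 in siQk and 67.4 ± 9.79 in siNT (SD, n = 3 each). The difference of 21.6 points (log2 read ratio 2.04, SE 0.47) did not pass the test (limma adjusted p = 0.0835). It passed without siQk 2 (25.0 points, adjusted p = 0.0333) and with exons of extreme PSI kept in the fit (0.000438).

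A 12 nt coding microexon of Erc1 is the other release-gene entry of the authors' neural list. It is printed from GENCODE M21 (chr6:119734081-119734092, minus strand) with the exon in capitals.
Erc1 12 nt exon: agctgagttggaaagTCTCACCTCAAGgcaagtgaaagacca
Its PSI was 76.92, 63.76 and 66.85 in siQk and 53.97, 64.31 and 56.03 in siNT. The siQk 2 value lay below the siNT 2 value, so the groups overlapped, and the difference of 11.1 points (7.20 without siQk 1) did not pass the test (limma adjusted p = 0.648). The authors' deposited table of neural microexons gives 68.3% in siQk and 57.1% in siNT, with an ACTAAY motif on the downstream side and the class not changed. Erc2 had 11 tested exons, none past the test. Its largest differences were a 67 nt exon at 48.6% in siQk and 39.1% in siNT (adjusted p = 0.704) and a 36 nt exon at 1.15% in siQk and 9.95% in siNT (adjusted p = 0.746), which differed by -5.41 points without siNT 3 and -13.8 without siNT 2.

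Cask, a scaffold that links the cell adhesion protein neurexin to the release machinery, had a called event at an alternative 3' splice site. Acceptors 15 nt apart open 1 coding exon (long form chrX:13537761-13537841, minus strand). The long form, its extra 15 nt in capitals, is shown with 2 shorter Cask exons that differed by over 10 points. In the 18 nt exon the capitals mark the 9 nt that the N2A table measures as an event (chrX:13596686-13596694), and in the 36 nt exon (chrX:13550947-13550982) the whole exon. The annotated 18 nt exon is at chrX:13596686-13596703.
Cask long acceptor: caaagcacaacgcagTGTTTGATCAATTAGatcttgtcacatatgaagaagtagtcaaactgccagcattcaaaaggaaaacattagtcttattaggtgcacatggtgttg
Cask 18 nt exon: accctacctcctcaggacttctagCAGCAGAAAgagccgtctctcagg
Cask 36 nt exon: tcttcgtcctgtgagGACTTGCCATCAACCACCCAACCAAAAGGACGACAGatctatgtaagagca

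The long acceptor was used at 3.57, 10.74 and 9.06% in siQk 1 to 3, against 18.94, 19.14 and 22.25% in siNT 1 to 3. Every siQk sample lay below every siNT sample, with a difference of -12.3 points (log2 read ratio -1.66, SE 0.33, limma adjusted p = 0.0103). The short acceptor is the complement of the long one, at 92.2% in siQk and 79.9% in siNT. These are the 2 called sites among 16 tested alternative 3' sites of the release genes, which makes 12.5%, beside 0.101% of all 9943 tested 3' sites; they are 1 choice counted from its 2 ends. The call was lost without siQk 1 (adjusted p = 0.0643), siNT 2 (0.112) or siNT 3 (0.0792), and on the PSI scale (0.522), where limma called 0 of all 9943 sites.

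The 36 nt exon of Cask had a PSI of 27.63, 32.27 and 31.03 in siQk and of 42.65, 43.75 and 41.79 in siNT. It was lower in every siQk sample (-12.4 points) without passing the test (limma adjusted p = 0.0990). On the PSI scale it was the one release-gene exon that limma called (adjusted p = 0.0308). The 9 nt event had a PSI of 82.26, 51.52 and 68.00 in siQk and of 48.87, 54.03 and 38.03 in siNT. Its groups overlapped, and its 20.3 points did not pass the test (limma adjusted p = 0.433). The difference was 12.8 points without siQk 1 and 28.2 points without siQk 2.

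**Figure D2:**
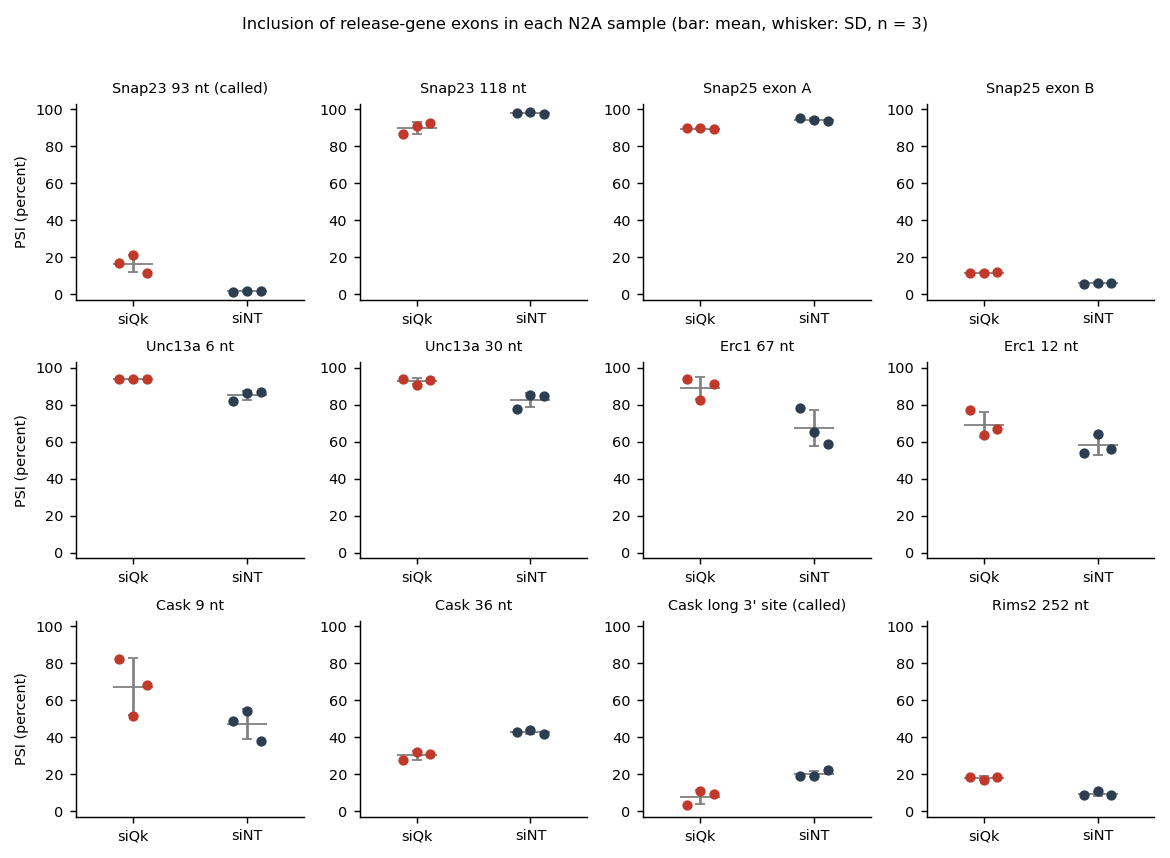
PSI (percent) of 12 splicing events of release genes in each of the 3 siQk (left) and 3 siNT (right) N2A samples; grey bars are means and whiskers SD. The groups separate in all panels except the 12 nt exon of Erc1 and the 9 nt event of Cask, and the 93 nt exon of Snap23 and the long 3' site of Cask are the called events.

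The other scaffolds and regulators had no called exon. Rims2, which tethers vesicles through Rab3 and recruits Munc13, had 12 tested exons, the most of any release gene. A noncoding 252 nt exon was included at 18.58, 16.70 and 18.73% in siQk, against 8.64, 10.77 and 8.92% in siNT, with no overlap (8.56 points, limma adjusted p = 0.153). A 74 nt exon of Rims3 stood at 67.7% in siQk and 73.8% in siNT (adjusted p = 0.823), a difference of -6.09 points that was -12.2 without siQk 1 and -1.06 without siQk 2. In Stxbp5, which encodes tomosyn, an inhibitor that occupies syntaxin, a 54 nt exon had a PSI of 0.00, 0.00 and 0.39 in siQk and of 6.59, 2.25 and 8.47 in siNT. That exon was lower in every siQk sample (-5.64 points, adjusted p = 0.0763). A 240 nt exon of its relative Stxbp5l stood at 100% in siQk and 93.6% in siNT, on as few as 19 reads (adjusted p = 0.850). The siNT values were 80.77, 100 and 100% in siNT 1 to 3, so this difference came from siNT 1 alone.

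Genes of SNARE recycling, calcium sensing and the vesicle itself had no exon past the test. Nsf, the ATPase that takes spent SNARE complexes apart, had a 67 nt exon at 98.5% in siQk and 97.4% in siNT (limma adjusted p = 0.703). Dnajc5, a vesicle chaperone that keeps SNAP25 folded, had a 75 nt exon at 42.0% in siQk and 39.3% in siNT (0.893). Syt7, a slow calcium sensor, had a 369 nt exon at 32.2% in siQk and 27.1% in siNT (0.866), and Syt1, the fast one, an 80 nt untranslated exon at 3.31% in siQk and 2.91% in siNT (0.909). Of the synapsins, which tether vesicles in reserve, a Syn2 exon of 253 nt stood at 97.7% in siQk and 98.2% in siNT (0.997) and a Syn3 exon of 75 nt at 1.68% in siQk and 3.41% in siNT (0.947). Single libraries moved the small differences of Dnajc5, Syt1, Syt7, Syn2 and Syn3 by over 1.5 times; that of Syt7 was 10.0 points without siQk 1 and 0.15 without siQk 2. The 21 genes with no tested exon include Bsn, Pclo, Stx1a, Vamp2, Syp and Sv2a.

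Introns and alternative 5' sites gave no call. Of 50 tested introns in 18 release genes, 0 were called, beside 0.113% of all 17664 introns, and 6 had an unadjusted limma p under 0.05, beside 5.02% of all. On the PSI scale limma called 1 of all 17664 introns, and 0 of the 50. A 301 nt intron of Bsn, the Bassoon scaffold, was retained at 9.80% in siQk and 23.3% in siNT (adjusted p = 0.862). A 363 nt intron of Snap23 was retained at 5.28, 15.32 and 2.66% in siQk and at 0.00, 0.96 and 2.46% in siNT, with no overlap (limma adjusted p = 0.571). These values rest on as few as 15 reads and on at most 2.36 inclusion reads in any sample. A 412 nt intron of Vamp1, a vesicle SNARE, was retained at 91.30, 87.88 and 94.29% in siQk and at 100% in each siNT sample, on as few as 21 reads (adjusted p = 0.114). Of 18 tested alternative 5' sites, 0 were called, beside 0.107% of all 7498, and 4 had an unadjusted limma p under 0.05, beside 5.13% of all. These 4 come from 1 choice in Syt11 and 1 in Unc13a, each counted from both ends, so they are not independent. On the PSI scale limma called 2 of all 7498, and 0 of the 18. A 15 nt alternative in Unc13a stood at 10.7% in siQk and 16.6% in siNT (adjusted p = 0.895).

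Junction coverage of the release genes lay evenly about no change. In bulk RNA, fewer cells of a kind and less RNA per cell cannot be told apart, and coverage is compared within a gene only, since it is not scaled by length. Of the 38 genes, 30 had a mean of at least 20 reads and were tested. The other 8 (Unc13b, Rims1, Pclo, Sv2b, Cadps, Cadps2, Rph3a and Doc2b) averaged 0.333 to 14.3 reads per sample. With limma on log2(CPM + 0.5), 0 of the 30 were called, beside 4.21% of all 10851 genes, and 0 with TMM scaling factors. The 457 genes called in all became 863 without siQk 1, 58 without siQk 2, 43 without siQk 3, 153 without siNT 1, 95 without siNT 2 and 110 without siNT 3. This share thus varied widely with the samples kept, and the reason was not tested. An unadjusted p under 0.05 was found in 9 of the 30 (3 higher, 6 lower in siQk), beside 20.4% of all genes. The median log2 fold change was 0.00, beside 0.02 over all genes, with 15 genes above and 15 below 0. The groups did not overlap in 14 of the 30 genes (46.7%), 5 higher and 9 lower in siQk, beside 26.0% of all genes.

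Stxbp5 came closest to a call, with 179, 156 and 152 CPM in siQk 1 to 3 and 125, 114 and 132 CPM in siNT 1 to 3. All siQk values were the higher ones (log2 fold change 0.39, SE 0.09, limma adjusted p = 0.0533). Unc13a had 517, 574 and 530 CPM in siQk and 632, 652 and 704 CPM in siNT, lower in every siQk sample (-0.29, SE 0.07, adjusted p = 0.0633). Rims2 had 173, 171 and 161 CPM in siQk and 218, 192 and 212 CPM in siNT, again with no overlap (-0.30, SE 0.08, adjusted p = 0.0679). Snap23 averaged 14.9 ± 3.19 CPM in siQk and 21.3 ± 1.56 CPM in siNT (SD, n = 3 each), with a log2 fold change of -0.52 (SE 0.16, adjusted p = 0.112) that was -0.34 without siQk 1. Of the remaining genes with an unadjusted p under 0.05, log2 fold changes were -0.38 for Bsn, -0.24 for Syt1, -0.19 for Cask, 0.23 for Erc1 and 0.43 for Unc13c, with adjusted p from 0.149 to 0.194. Core SNAREs stood at 66.6 CPM in siQk and 57.5 CPM in siNT for Stx1a, 141 CPM in siQk and 159 CPM in siNT for Snap25, and 36.7 CPM in siQk and 41.6 CPM in siNT for Vamp2, with adjusted p from 0.258 to 0.395.

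**Figure D3:**
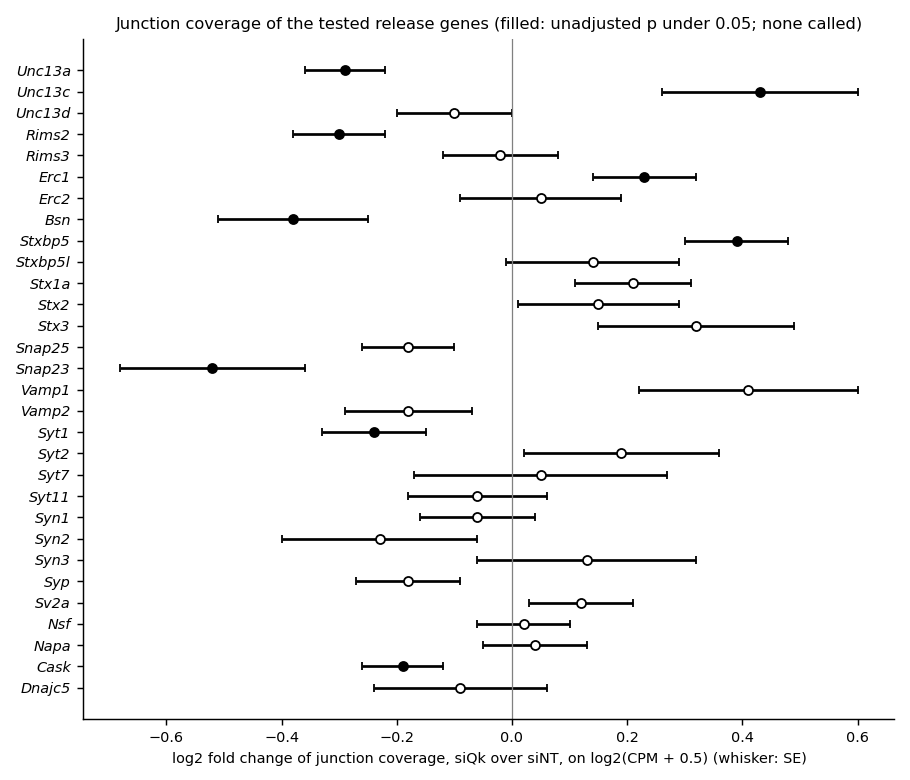
Log2 fold change of junction coverage, siQk over siNT, on the log2(CPM + 0.5) scale (x axis) for the 30 tested release genes; points are estimates from 3 samples a group and whiskers their SE. Filled points have an unadjusted p under 0.05. Values run from -0.52 (Snap23) to 0.43 (Unc13c), and none passed the adjusted threshold.

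In neurons, the release-gene microexons with the clearest differences were lower with cycloheximide, and 4 of these 7 lay in Cadps and Cadps2. The authors' deposited table gives 1 combined PSI per condition and a probability of a difference, with no replicate values, so no error or test can be given and the depth is unknown. Its columns do not name the conditions, and the order, untreated and then CHX, was read from the name of the table. Of 36 microexons of these genes, 7 met a difference of at least 10 points with a probability of at least 0.9, which makes 19.4%, beside 9.40% of all 2469 microexons in the authors' deposited table. All 7 were lower with CHX and 0 were higher, beside 7.17% lower and 2.23% higher of all. Among the 25 whose PSI lay from 2 to 98 in at least 1 condition, the 7 make 28.0%, beside 16.8% of all such microexons. The median change of those 25 was -3.60 points, beside -1.32 for all such microexons, with 19 of the 25 lower and 6 higher with CHX; 12.8% of all such microexons met the criteria with a lower value. Exons of 1 gene share transcripts and are not independent.

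Cadps and Cadps2 encode the CAPS proteins, which prime dense-core vesicles, and they hold 4 of the 7. These exons, all with lengths that keep the reading frame, are printed with the Unc13c and Erc2 ones because they passed the difference and the probability and are annotated in GENCODE M21. All are coding there. Capitals mark the exons, the small letters are the 15 nt spliced to each side, and Erc2 is on the plus strand and the others are on the minus strand.
Cadps 18 nt exon (chr14:12485641-12485658): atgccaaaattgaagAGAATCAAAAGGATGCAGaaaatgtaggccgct
Cadps2 21 nt exon (chr6:23381057-23381077): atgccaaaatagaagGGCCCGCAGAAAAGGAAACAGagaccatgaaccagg
Cadps 21 nt exon (chr14:12468346-12468366): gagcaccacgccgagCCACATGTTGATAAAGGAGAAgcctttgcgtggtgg
Cadps2 9 nt exon (chr6:23354194-23354202): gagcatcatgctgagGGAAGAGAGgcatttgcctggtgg
Unc13c 23 nt exon (chr9:73812951-73812973): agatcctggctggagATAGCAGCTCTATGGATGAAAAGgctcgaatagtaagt
Erc2 24 nt exon (chr14:27776159-27776182): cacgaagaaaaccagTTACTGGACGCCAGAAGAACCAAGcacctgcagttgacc

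The 18 nt exon of Cadps and the 21 nt exon of Cadps2 follow upstream exon ends that are identical at 14 of 15 bases. Their downstream flanks are identical at only 5 of 15. In the authors' deposited table, the Cadps2 21 nt exon had a PSI of 25.3 with CHX and 86.2 untreated (probability 1.0). The Cadps 18 nt exon had 47.7 with CHX and 79.3 untreated in the authors' deposited table (probability 1.0). Both values were lower with CHX, by more points in Cadps2. A second pair, the 21 nt exon of Cadps and the 9 nt exon of Cadps2, lies between flanks identical at 12 of 15 upstream and 13 of 15 downstream bases. In the authors' deposited table the Cadps2 9 nt exon had 59.4 with CHX and 82.5 untreated (probability 0.996), and the Cadps 21 nt exon 15.5 with CHX and 26.5 untreated (probability 0.998).

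Of 9 Munc13 microexons 1 passed both criteria, in Unc13c, the Munc13 of cerebellar granule cells. Its 23 nt exon had a PSI of 18.9 with CHX and 83.5 untreated in the authors' deposited table (probability 0.995). It is the only one of the 7 whose length is not a multiple of 3. The 24 nt exon of Erc2 had 54.3 with CHX and 69.1 untreated (probability 0.995), and a 27 nt exon of Rims2 (chr15:39482189-39482215) 1.07 with CHX and 12.6 untreated (probability 0.998), again in the authors' deposited table.

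Other shifts of 5 points or more missed 1 of the criteria. A 28 nt exon of Stx2, a plasma membrane syntaxin, had 3.92 with CHX and 25.1 untreated in the authors' deposited table, at a probability of 0.861. The 6 nt exon of Unc13b went the other way in the authors' deposited table, with 78.3 with CHX and 68.2 untreated, at a probability of 0.651. In the authors' deposited table, the upstream 30 nt exon of Unc13a had 91.2 with CHX and 98.9 untreated (probability 1.0), a 5 nt exon of Rims1 66.2 with CHX and 72.9 untreated (0.934), and a 12 nt exon of Cadps 24.7 with CHX and 30.5 untreated (0.951). The remaining exons with a PSI from 2 to 98 in the authors' deposited table moved by less than 5 points, among them Pclo 27 nt (95.8 with CHX, 99.2 untreated), Erc2 12 nt (93.4 with CHX, 96.6 untreated), Cask 18 nt (89.2 with CHX, 91.2 untreated), Erc1 12 nt (87.4 with CHX, 91.6 untreated) and Cadps2 15 nt (33.3 with CHX, 33.0 untreated). The other 11 microexons lay outside that range in both conditions.

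**Figure D4:**
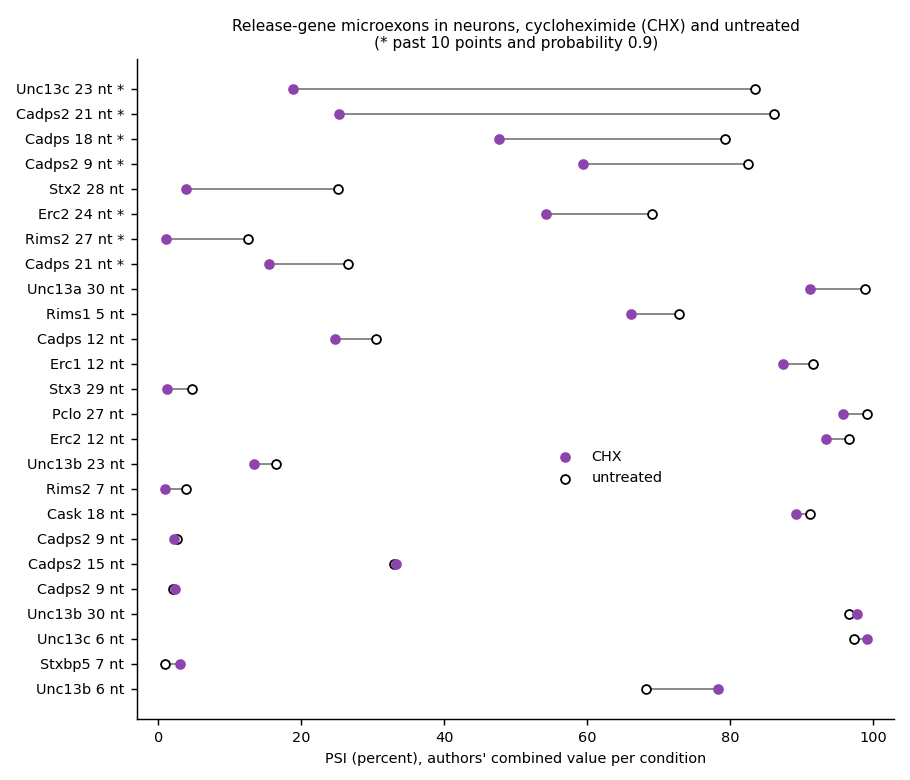
PSI (percent, x axis) of the 25 release-gene microexons with a PSI from 2 to 98 in at least 1 condition, for neurons with CHX (filled) and untreated (open), 1 value per condition as combined by the authors, in order of the difference. Stars mark the 7 past 10 points and a probability of 0.9, all lower with CHX, led by Unc13c 23 nt and Cadps2 21 nt.

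Several of the same exons could be read in both cell models. Of the 36 microexons, 28 matched an N2A event by position, and 9 of these had at least 10 reads in all 6 N2A samples. The upstream 30 nt exon of Unc13a stood at 22.8% in siNT cells and at 98.9% in untreated neurons in the authors' deposited table. The 12 nt exon of Erc2 stood at 10.5% in siNT cells and 96.6% in untreated neurons, and its 24 nt exon at 9.50% in siNT cells and 69.1% in untreated neurons (authors' deposited table for the neurons). These Erc2 means in siNT are unsteady. The 12 nt exon had 5.98, 0.00 and 25.61% in siNT 1 to 3, on at most 17.16 inclusion reads. The 24 nt exon had 4.96, 18.95 and 4.60%, on at most 3.98 inclusion reads. The Erc1 12 nt exon, at 58.1% in siNT cells and 91.6% in untreated neurons of the authors' deposited table, and the Unc13a 6 nt exon, at 85.1% in siNT cells and 99.8% in those neurons, were nearer to each other. The tables were made separately, so these levels are set side by side without a test.

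For the wider release pathway, a list of other SNAREs, tethers and vesicle regulators was read in the same fits, 82 of whose symbols the table holds. Of 91 tested exons in 32 of these genes, 2 were called (2.20%), both higher in siQk, beside the 1.18% of all exons called and the 0.750% called higher. The adjusted p alone was passed by 3 of the 91, beside 1.40% of all exons. A 45 nt exon of Exoc1, a subunit of the exocyst that tethers vesicles to the plasma membrane, was included at 97.16, 98.28 and 94.40% in siQk 1 to 3, against 86.87, 81.01 and 81.29% in siNT 1 to 3. The groups did not overlap, and the difference was 13.6 points (limma adjusted p = 0.0233). A 39 nt exon of Exoc7, another exocyst subunit, was included at 40.27, 37.90 and 41.43% in siQk, against 27.25, 23.59 and 27.72% in siNT, 13.7 points higher (adjusted p = 0.0473). A 299 nt exon of Rimbp2, which links RIM to calcium channels, averaged 13.4% in siQk and 4.39% in siNT, 9.03 points apart (adjusted p = 0.0208) and so under the minimum. Neither exocyst exon was called when siQk 2 or any siNT sample was left out. None of 105 introns, 69 alternative 3' sites and 39 alternative 5' sites was called (unadjusted limma p under 0.05 in 5, 6 and 0, beside 5.02%, 4.85% and 5.13% of all). Of the 59 genes tested for coverage, 0 were called, beside 4.21% of all genes. The unadjusted limma p was under 0.05 in 8 of the 59, beside 20.4% of all genes. Of these 8, 7 were higher in siQk, beside 1376 of the 2215 such genes in all.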

How the data were processed

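For N2A cells the authors deposited a table in the vast-tools layout, with 1 line per splicing event and PSI in percent per sample. Beside it the authors deposited a text cell of another kind, which holds the event's inclusion and exclusion reads, corrected by the authors and not scaled to depth. The deposited percent equalled 100 times inclusion over all these reads, within 0.1, for 100% (rounded) of the events with at least 10 reads. The authors also deposited a table of neural microexons with PSI as a fraction per group, replicates combined, and neuron microexons in the Whippet layout. The last holds, per the file headers, a PSI fraction per condition, a probability score for a difference and an entropy score that was not used. Its first condition was taken as untreated from the table's name. PSI fractions were turned into percent. The build is mm10, per the submitters' processing notes, and the software is not given in the sources at hand.

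Events of the whole table entered with at least 10 reads in each N2A sample and a PSI averaging 2 to 98 over the samples. After adding 0.5 to inclusion and to exclusion reads, limma 3.58.1 (R 4.3.3) was fitted to their log2 ratio, two-sided, with robust moderation, a trend on the sampling variance and no block, with Benjamini-Hochberg adjustment within an event class. A call needed an adjusted p under 0.05 and a difference of at least 10 points; neuron microexons needed 10 points and a probability of 0.9. Only the 6 N2A samples entered. Junction coverage summed the reads of a gene's exon events, in which a read can count for several events. It was tested with limma's trend method on log2(CPM + 0.5) for genes averaging 20 reads or more, and called at an adjusted p under 0.05; this scale understates changes of low genes. Reads per sample are given with the results; they cannot be corrected for PCR copies. P-values measure the spread between samples that the labels call biological replicates. Within a group, the variance between any pair of samples was 1.87 to 3.44 times that of sampling, so none was counted as a copy of another.

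The 38 genes, the list of other release genes and the tests were chosen with earlier results of these data known. Named are the called events, those in the authors' 2 tables, each gene's tested exon with the largest difference, and the coverage of the genes. Exons past the adjusted p or with a difference of at least 8 points, and single introns and 5' sites, were also named after their values were seen. Alternatives are listed in the closing section. Exons were placed on GENCODE M21 (GRCm38), whose transcripts gave all sequences; intron and protein sequences were not used here. The fits were tested on simulated data. Of 67 cassette exons set to differ by 10 points, 10.4% were called. The called share was 23.9% of 67 exons at 15 points and 78.8% of 66 exons at 25 points. Of the exons left unchanged, 0 were called. Only exons of low to middle mean PSI were altered, all upward in siQk, with an assumed spread between replicates. An exon of this kind that did not pass the test can therefore still differ by 10 or 15 points. Decreases and exons near full inclusion were not simulated, so the share called among them is unknown. Python 3.11.15 with pandas 2.3.3 and matplotlib 3.10.9, and the R package data.table, version 1.17.8, handled tables and figures.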

Additional observations from a re-analysis of the deposited data

How the results depend on the processing

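The 1 called exon became 3 with no filter on mean PSI (Snap23 93 nt, Erc1 67 nt and Unc13a 30 nt) and 4 by adjusted p alone. On the PSI scale the count was again 1, but the exon was Cask 36 nt, and without siQk 2 it was Erc1 67 nt. The 2 called 3' sites of Cask became 0 on the PSI scale, and ran from 0 to 2 when single samples were left out. Under the same omissions the called exons of other release genes ran from 0 (without siQk 2, siNT 1, siNT 2 or siNT 3) to 2, and their genes called in coverage from 0 to 4 (without siQk 1). The intron, 5' site and member coverage counts remained 0 under each omission, prior, read minimum, pseudocount and scaling tried. Of the values of named exons and sites under these alternatives, 270 kept their direction and side of the threshold, 8 newly passed, 10 no longer passed and 1 changed sign: the 80 nt exon of Syt1 ran from -0.11 (without siNT 2) to 0.685 points. Coverage fold changes changed sign 15 times, in 8 genes with a log2 fold change of at most 0.0865 in size. The count of 7 neuron microexons was also 7 at a probability of 0.95 and 10 at 5 points, all lower with CHX. The cause of these shifts was not tested.

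With the replicate number as a block, 2 of 66 release-gene exons were called (Erc1 67 nt added), beside 161 of all 12930 exons. In coverage, 3 of 30 release genes (Stxbp5, Unc13a and Rims2) and 6 of 59 other release genes were called. These stand beside 1205 of all 10851 genes with the block and 457 without it. The other counts were as without it. Deviations of same-numbered samples correlated at 0.139, 0.019 and 0.116. For siQk 1 and siQk 3 the same-numbered siNT sample gave the highest correlation, while siQk 2 correlated best with siNT 3 (0.045). These low values do not decide whether the numbers mark pairs, and the main fits used no block.

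Depth limits the low exons most: inclusion of the Snap23 93 nt exon rests on at most 20.77 corrected reads in a sample, and 8 of the 38 genes averaged at most 14.3 coverage reads. The neuron values carry no depth or replicate spread.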
